A study of Mus musculus with 130 samples.

Results

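The genes described here encode the proteins of the nuclear pore and the receptors that carry cargo through it, measured in single mouse embryos at the 2-cell stage. The rule that chose them uses symbols and no measured value, though it was set with earlier results of these data known: Nup followed by a number, Kpna followed by a digit, Kpnb1, Ipo followed by a number, Xpo followed by a digit or t, Ran, and Ranbp followed by a number. The pattern matched 63 of the 36161 genes in the data. Of these, 22 encode nucleoporins, with Ranbp2 counted among them, and 26 encode transport receptors, Ran or Ran-binding proteins. Another 2, Ranbp9 and Ranbp10, are Ran-binding by name only and are scaffold proteins of the CTLH ubiquitin ligase. The remaining 13 are pseudogenes, Kpna2-ps and 12 copies of Ranbp2.

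A total of 130 embryos of the strain B6129F1 were analysed, each as its own Smart-seq2 library primed with oligo-dT. The zygotes were collected 5 hours after fertilization and cultured in wet chambers with no oil cover. From 6 hours onwards the KSOM culture medium held either 10 µM SR1848 (80 embryos) or 0.1% DMSO (50 embryos, marked NT in their titles), and whether the SR1848 medium also held DMSO is not stated. SR1848 is a small molecule used against the nuclear receptor Nr5a2, and the series is about the part of Nr5a2 in zygotic genome activation, when the embryo's own genome starts to be transcribed. The design text lists 56 controls, of which 6 were not analysed here. The labels tie no embryo to a female, a culture drop or a plate, so the p-values treat embryos as independent and measure the spread between them, part of which may be technical. Handling that all embryos of a group had in common and the effect of SR1848 cannot be told apart.

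Total counts per embryo ran from 3173683 to 8438537 with DMSO and from 2730852 to 7824458 with SR1848. Their means were 5345988 with DMSO and 4733475 with SR1848 (adjusted p = 0.00762, two-sided permutation test). The number of genes with a count was 16086 ± 478 (SD, n = 50) with DMSO and 15579 ± 695 (SD, n = 80) with SR1848 (adjusted p = 4.0e-05, two-sided permutation test). The stage was checked on 8 genes typical of 2-cell embryos, all of which were measured: their summed level ran from 341 to 1040 CPM (counts scaled to a common library size) with a median of 622 in controls, and from 149 to 4570 CPM with a median of 1550 with SR1848. The genes in this sum did not move alike. Eif1a had a median of 114.9 CPM in controls and 21.5 CPM with SR1848. The others had higher medians with SR1848, such as Tcstv1 with 14.7 CPM in controls and 218.5 CPM with SR1848. A list of 5 oocyte-derived transcripts had medians of 845 and 1150 CPM. Among 8 cumulus cell markers the sum ran from 21.5 to 93.1 CPM in controls and from 0.279 to 44.5 CPM with SR1848, nearly all of it Amhr2, while Vcan, Ptx3, Fshr, Inhba and Foxl2 were at 0 in at least 90% of embryos. Among 7 blood markers the sum ran from 0 to 45.1 and from 13.4 to 323 CPM, nearly all of it Hba-a1, and Hbb-bs and Hbb-bt were at 0 in at least 90% of embryos. The 7 sperm markers summed to medians of 0.663 and 1.61 CPM. Some alternative settings given further below bear on gene number, on embryos with low depth and on oocyte transcripts. Beyond these settings, the part that depth, gene number or these lists may have in the results below was not tested.

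The nuclear pore is built from stacked rings: an outer ring on each face made of the Y complex, an inner ring that anchors the central channel, and a membrane ring, with filaments towards the cytoplasm and a basket towards the nucleus. Nucleoporins of the channel carry phenylalanine-glycine repeats that let receptors pass. Importin alpha reads the classical nuclear localization signal and is carried by importin beta, exportins carry cargo outwards, and the small GTPase Ran sets the direction by loading and unloading them. The early embryo inherits this machinery from the oocyte, and importins bring in the histones and transcription factors that the newly active genome uses.

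After SR1848 most matched messages of the pore were lower. The receptor genes were divided in direction, though their summed level was lower as well, with medians of 4660 CPM in controls and 3415 CPM with SR1848. A large part of that sum and of its fall is Kpna2, with medians of 1476 CPM in controls and 583 CPM with SR1848. Of the 63 matches, 49 passed the filter on low counts and were tested with edgeR, where a gene was called at an adjusted p under 0.05 over all 13224 genes tested. Among the 22 pore genes, all of which passed the filter, 15 were lower and 4 higher, with a median log2 fold change (SR1848 against DMSO) of -0.98. Of the 26 receptor and Ran genes 25 were tested, and 12 were lower and 6 higher with a median of -0.07. The background is wide: 82.1% of all genes tested were called, 36.5% lower and 45.6% higher, and their median was 0.24. The share called lower was therefore 68.2% for the pore and 48% for the receptors beside 36.5% over all genes. Each library is a whole embryo and all these values are relative to the library, so neither cell number nor RNA per cell can be read from them.

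The height of all these fold changes depends on what the libraries are scaled to. The main values use TMM factors, which assume that most genes keep their share. Scaled to the summed counts of 45 oocyte transcripts, which took 2.1 ± 0.638% of counts in controls (SD, n = 50) and 3.31 ± 1.27% with SR1848 (SD, n = 80), the median of all genes moved from 0.24 to -0.46 and the higher calls from 55.5% to 31% of all calls. Relative to the median of all genes, the pore median stood at -1.22 with TMM and at -1.40 with oocyte scaling, and the receptor median at -0.30 and -0.27. Of the 49 tested members, 32 kept both their direction and their call under each of 13 alternative settings, 27 of them lower and 5 higher (Kpna3, Kpna7, Ipo8, Nup214 and Ranbp6).

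**Figure D1:**
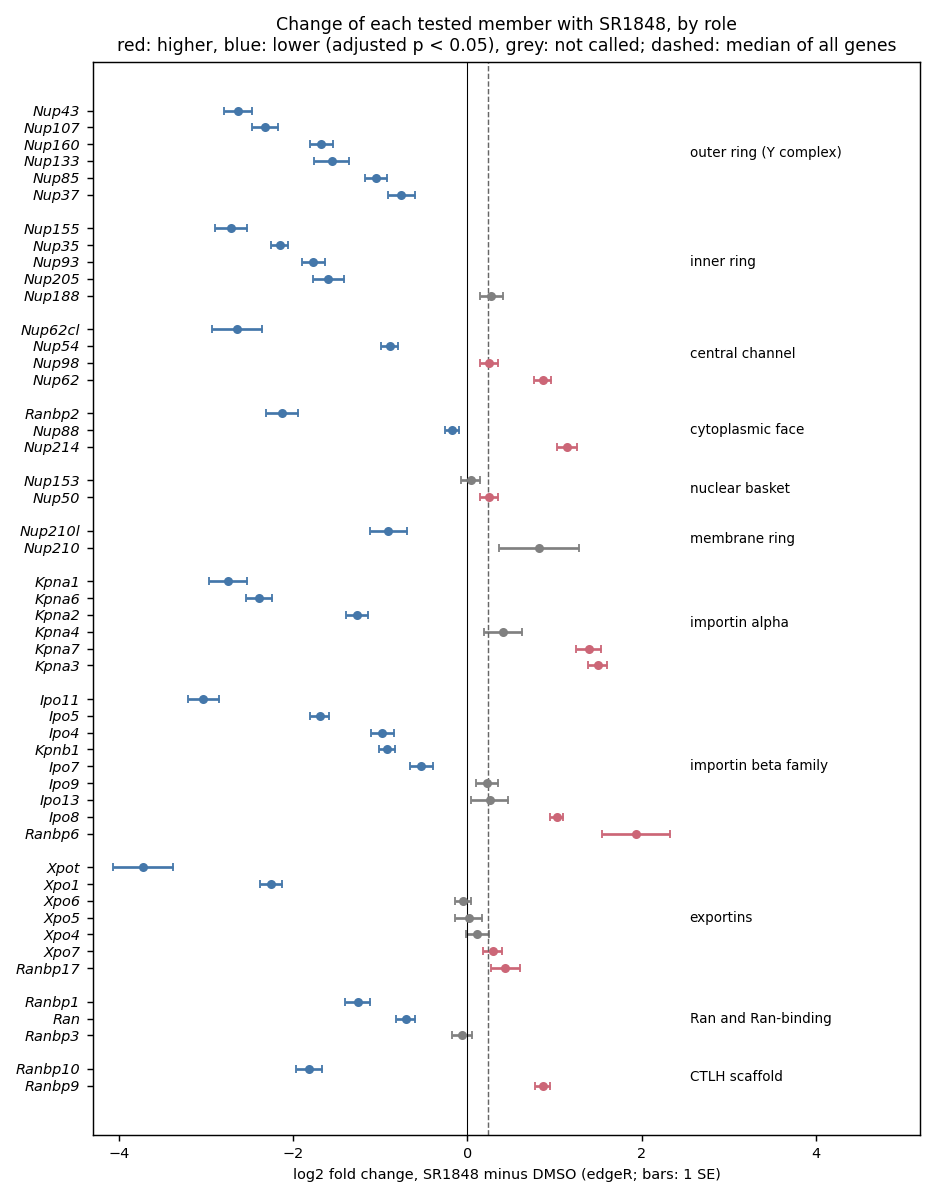
Log2 fold change of each tested member, SR1848 minus DMSO, grouped by role, with bars of 1 standard error from the edgeR fit; the dashed line is the median of all genes tested, 0.24. All 6 matched genes of the outer ring lie left of 0, while the importin alpha genes spread from -2.75 for Kpna1 to 1.49 for Kpna3. Under oocyte scaling 11 members move from above to below 0. Of these, Nup98, Nup50, Ranbp17 and Xpo7 were called in the main analysis, and Nup153, Nup188, Ipo9, Ipo13, Kpna4, Xpo4 and Xpo5 were not.

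No member separated the groups completely. Over all genes tested, 1.71% had no overlap between SR1848 and control embryos, and none of the 49 members did. The closest was Nup35, for which 78 of 80 SR1848 embryos lay below every control.

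The promoters of the members were read to see what they share beyond function. The RefSeq table for GRCm38.p6 held 44 windows of 300 bases, from 250 before to 50 after the start, for 39 of the 50 genes that are not pseudogenes. The site of the activator Nrf1, which reads the same on both strands and whose letters stand in capitals below, was in 5 of the 44 windows (11.4%), beside 0.971% of all 32851 windows and 2.06% of the windows of tested genes. These 5 belong to genes of different roles, and stretches from them are shown to let the sites be compared, all written 5′ to 3′ on the gene's strand.
Ran (chr5:129019921-129019990, plus strand): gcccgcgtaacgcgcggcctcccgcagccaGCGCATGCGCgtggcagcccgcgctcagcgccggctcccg
Nup50 (chr15:84923231-84923362, plus strand): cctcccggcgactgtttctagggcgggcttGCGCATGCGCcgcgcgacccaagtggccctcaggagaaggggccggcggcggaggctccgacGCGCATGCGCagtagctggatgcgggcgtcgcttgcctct
Nup62 (chr7:44816038-44816087, plus strand): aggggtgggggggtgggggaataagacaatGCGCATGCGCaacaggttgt
Nup107 (chr10:117792731-117792800, minus strand): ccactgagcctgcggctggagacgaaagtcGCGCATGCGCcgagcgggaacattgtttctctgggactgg
Xpo5 (chr17:46202696-46202788, plus strand): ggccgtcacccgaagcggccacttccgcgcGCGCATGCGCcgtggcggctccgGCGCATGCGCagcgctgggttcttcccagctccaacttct
The genes with the site did not move together: Ran and Nup107 were lower with SR1848, Nup62 and Nup50 higher and Xpo5 not called, and under oocyte scaling Nup62 was no longer called and Nup50 turned lower without a call.

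Other short motifs were nearer to their background. On either strand, CCAAT was in 22 windows (50%, beside 39.1% for tested genes), GGGCGG in 30 (68.2% beside 59.3%), the ETS core TTCCGG in 12 (27.3% beside 26.3%) and TATAAA in 5 (11.4% beside 7.88%). None of the 44 windows held TCAAGGTCA, TCAAGGCCA, CCAAGGTCA or CCAAGGCCA, the extended sites bound by Nr5a2, which 2.22% of all windows hold. Among the windows of tested genes the share with such a site is 1.78%. Their absence says only that these letters are not in these windows. A CCAAT box is shared by the importin alpha genes Kpna2, Kpna4 and Kpna7. Kpna2 and Kpna7 moved in opposite directions, and Kpna4 was not called. For Kpna2 and Kpna7 the box is in capitals here, and in Kpna7 it reads as its reverse complement.
Kpna2 (chr11:106999526-106999580, minus strand): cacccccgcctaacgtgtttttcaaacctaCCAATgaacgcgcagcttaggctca
Kpna7 (chr5:145009803-145009867, minus strand): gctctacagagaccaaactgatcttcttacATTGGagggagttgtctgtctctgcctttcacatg

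In the outer ring all 6 matched genes were lower. The Y complex is the load-bearing scaffold of the pore and a seat of its assembly. Nup43 (ENSMUSG00000040034; chromosome 10, 7667503 to 7678881, plus strand, GENCODE M21 on mm10) was at 26.8, 66.7 and 129 CPM in the lowest, median and highest control and at 0.188, 11.2 and 31.3 CPM with SR1848. Its groups touched in 3 SR1848 embryos, and the other 77 lay below every control. The log2 fold change was -2.63 ± 0.16 (SE), a 6.19-fold difference (edgeR adjusted p = 5.1e-32). Nup107 (chromosome 10, 117750621 to 117792705, minus strand), the partner of Nup133 in the stem of the Y, was at 29.1, 137 and 229 CPM in controls and at 2.78, 23.02 and 116 CPM with SR1848. Its 51 SR1848 embryos below every control were fewer, and the other 29 overlapped the controls. The remaining members fell by less: Nup160 by 1.68, Nup133 by 1.56, Nup85 by 1.06 and Nup37 by 0.76 on the log2 scale, and their groups overlapped in 51 to 74 of the 80 SR1848 embryos. The median of the 6 was -1.62. Further genes of the Y complex, which the symbol pattern does not match, had small log2 fold changes. Sec13 was at 0.05 and not called, and Seh1l and Ahctf1 were called lower at -0.27 and -0.30. Ahctf1 varied widely with SR1848: its medians were 374 CPM in controls and 236 CPM with SR1848, with 25 treated embryos below every control and 3 above.

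The inner ring showed the same direction in 4 of 5 genes. Nup35 (chromosome 2, 80617236 to 80658906, plus strand), a membrane-binding protein of the ring, had the highest level per length of all pore genes in controls, 335 ± 97.3 TPM (counts per base of transcript, scaled to a common sum; SD, n = 50), and 72.6 ± 30.8 TPM with SR1848 (SD, n = 80). In counts it was at 132, 251 and 521 CPM in the lowest, median and highest control and at 24.1, 54.4 and 160.2 CPM with SR1848. The log2 fold change was -2.16 ± 0.10 (edgeR adjusted p = 8.3e-43), and only 2 SR1848 embryos reached into the control range. Nup155 (chromosome 15, 8109273 to 8161247, plus strand), which links the rings to each other, was at 19.04, 59.1 and 119 CPM in controls and at 0, 7.34 and 30.2 CPM with SR1848. No count at all was found in 3 of the 80 treated embryos, and 10 overlapped the controls. Its log2 fold change of -2.71 ± 0.18 (edgeR adjusted p = 1.1e-28) was the largest fall of the pore genes. The scaffold genes Nup93 and Nup205 fell too, with log2 fold changes of -1.77 and -1.596, whereas Nup188, a close relative of Nup205, was not called, with a log2 fold change of 0.27 (edgeR adjusted p = 0.0502). Nup188 was called higher under 5 of the alternatives and lower under oocyte scaling.

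The genes of the channel and of the cytoplasmic face went both ways. Nup62 (chromosome 7, 44816088 to 44830812, plus strand), the central FG-repeat protein of the channel, was at 104, 201 and 354 CPM in controls and at 99.5, 354 and 931 CPM with SR1848. The groups overlapped in 39 of 80 treated embryos, and 40 of 80 treated embryos lay above every control. Its log2 fold change was 0.86 ± 0.10 with TMM (edgeR adjusted p = 9.9e-14) and 0.21 under oocyte scaling, where it was not called (adjusted p = 0.203). Nup54, which forms a complex with Nup62 in the channel, fell by 0.89, so the partners moved apart under TMM. Nup62cl on the X chromosome, a relative of Nup62, was at 1.83, 46.6 and 122 CPM in controls and at 0, 4.54 and 44.7 CPM with SR1848. It was without a count in 12 treated embryos and in no control, with a log2 fold change of -2.64 ± 0.29 (edgeR adjusted p = 1.5e-15), although 54 of 80 treated embryos stayed within the wide control range. Nup98, whose message also encodes the Y complex protein Nup96, was 0.25 higher with TMM and turned to -0.39 under oocyte scaling, called both times.

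Nup214 and Ranbp2 form neighbouring parts of the cytoplasmic face and changed in opposite directions in every setting tried. Nup214 (chromosome 2, 31974436 to 32053975, plus strand), a docking site for Xpo1 and for messenger RNA export factors, was at 144, 299 and 699 CPM in controls and at 158, 587 and 1504 CPM with SR1848. All treated embryos were at or above the lowest control and 31 lay above every control. The log2 fold change was 1.14 ± 0.11 (edgeR adjusted p = 1.4e-17). Ranbp2 (chromosome 10, 58446920 to 58494356, plus strand), the giant filament protein that holds RanGAP1 at the pore, was at 58.6, 117 and 272 CPM in controls and at 2.00, 22.99 and 159 CPM with SR1848. In 68 of 80 treated embryos it lay below every control, with a log2 fold change of -2.13 ± 0.19 (edgeR adjusted p = 8.8e-21). None of the 12 Ranbp2 pseudogenes passed the filter on low counts. Nup88, the partner of Nup214, fell by 0.18 at the edge of the threshold (edgeR adjusted p = 0.0487), lost its call under 6 alternatives and was at 0.04 under upper-quartile scaling, not called.

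In the nuclear basket and membrane ring the 4 matched genes differed in direction, and 2 were not called. Nup50 (chromosome 15, 84923411 to 84942963, plus strand), which helps to release importin alpha from its cargo, was at 168, 277 and 740.3 CPM in controls and at 139.5, 313 and 850.3 CPM with SR1848. The groups overlapped in 72 of 80 treated embryos, the log2 fold change was 0.25 ± 0.11 (edgeR adjusted p = 0.0268), close to the median of all genes, and under oocyte scaling it was -0.25 and not called. Per length the order was the reverse, 208 ± 88.5 TPM in controls and 179.6 ± 115 TPM with SR1848, and the Nup50 transcripts that rose and fell differ in length. Its partner Nup153 was at 0.04 (edgeR adjusted p = 0.774) and lay on either side of 0 depending on the setting. Tpr, the long filament protein of the basket, is not matched by the symbol pattern and comes from the list of other pore and transport genes. It was at 142, 386 and 720.3 CPM in controls and at 30.1, 124 and 412 CPM with SR1848, and fell by 1.54 (edgeR adjusted p = 1.7e-26), with 47 of 80 treated embryos below every control. Nup210l, a relative of the membrane glycoprotein Nup210, was low in all embryos, at 1.75, 7.52 and 15.7 CPM in controls and at 0, 3.05 and 21.99 CPM with SR1848. It fell by 0.91 on the log2 scale (edgeR adjusted p = 5.3e-05), with 60 of 80 treated embryos inside the control range. Nup210 itself had no count in 22 controls and 26 treated embryos and was not called. Of the membrane ring genes that the pattern does not match, Pom121 was called higher at 0.23 and Ndc1 was at -0.23 and not called.

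**Figure D2:**
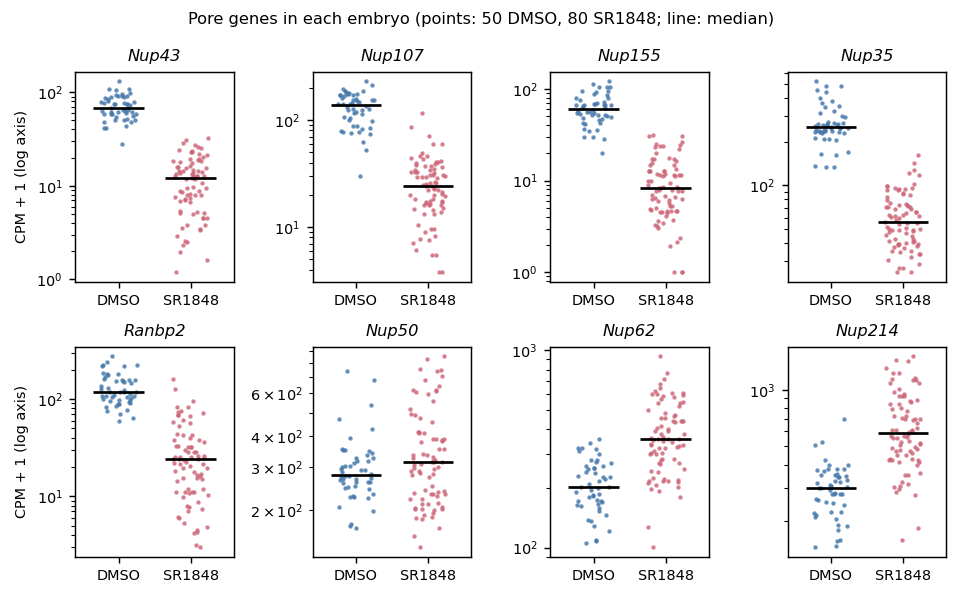
CPM + 1 (log axis) of 8 pore genes in each of 50 DMSO and 80 SR1848 embryos, with 1 point for each embryo and a line at the median. In Nup43, Nup107, Nup155, Nup35 and Ranbp2 the treated embryos lie mostly below the controls, in Nup214 31 and in Nup62 40 of 80 lie above every control (Nup62 not called under oocyte scaling), and in Nup50 the groups overlap in 72 of 80 treated embryos.

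Added up per length, the 22 pore genes gave 1070, 1710 and 2330 TPM in the lowest, median and highest control and 583, 1100 and 1950 TPM with SR1848, and 37 of 80 treated embryos lay below every control. In counts the same sums were 1718, 2462 and 3315 CPM and 1255, 2028 and 4195 CPM. The sum of the 26 receptor and Ran genes was lower at the median too. It was at 1820, 3030 and 4570 TPM in controls and at 1150, 1970 and 2770 TPM with SR1848, where 29 treated embryos lay below every control. Kpna2 weighs heavily in this sum, with a mean of 1338 TPM in controls and 528 TPM with SR1848. The order of the pore genes also changed. In controls Nup35 was followed by Nup50, Nup214 (168 ± 48.4 TPM) and Nup62 (149 ± 48.6 TPM), and each of the last 3 lay within the SD of its neighbour. With SR1848 the highest were Nup214 (267.5 ± 112 TPM) and Nup62 (249 ± 120 TPM), which did not differ beyond their spread, then Nup50 and, below it, Nup35.

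The importin alpha genes went in both directions. Of 6 genes, 3 were lower, 2 higher and 1 not called, while the summed level per length went from 927, 1780 and 2770 TPM in controls to 558, 1080 and 1950 TPM. Kpna2 (ENSMUSG00000018362; chromosome 11, 106988629 to 106999541, minus strand) was the most abundant member of the whole group in controls, at 1338 ± 554 TPM (SD, n = 50). It was at 611, 1476 and 3378 CPM in the lowest, median and highest control and at 117, 583 and 1775 CPM with SR1848. In 42 of 80 treated embryos Kpna2 lay below every control, with a log2 fold change of -1.27 ± 0.13 (edgeR adjusted p = 5.8e-17). Kpna1 (chromosome 16, 35978750 to 36037131, plus strand), a signal-reading importin of another subfamily, was at 91.8, 317 and 745 CPM in controls and at 0.307, 29.7 and 255 CPM with SR1848. Below every control were 65 treated embryos, and the log2 fold change was -2.75 ± 0.22 (edgeR adjusted p = 3.9e-23). Kpna6, which the mouse embryo needs from its mother to pass the 2-cell stage, fell by 2.39 (edgeR adjusted p = 3.3e-31).

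The importin alpha genes that rose were Kpna3 and Kpna7. Kpna3 (chromosome 14, 61365211 to 61439874, minus strand) was at 151, 326 and 865 CPM in controls and at 349.9, 922 and 2487 CPM with SR1848. Every treated embryo lay above the control median and 42 of 80 above every control. Its log2 fold change was 1.49 ± 0.11 with TMM (edgeR adjusted p = 3.3e-27) and 0.84 under oocyte scaling (adjusted p = 1.2e-07). Kpna7 (ENSMUSG00000038770; chromosome 5, 144983519 to 145084030, minus strand), an importin alpha found mainly in oocytes and early embryos, was at 6.23, 62.6 and 169 CPM in controls and at 19.5, 162 and 484 CPM with SR1848. The groups overlapped in 45 of 80 treated embryos and 35 lay above every control. Its log2 fold change was 1.39 ± 0.14 with TMM (edgeR adjusted p = 1.8e-16) and 0.57 under oocyte scaling (adjusted p = 1.8e-06). Kpna4, the closest relative of Kpna3, was at 0.41 and not called (edgeR adjusted p = 0.077), although its transcripts changed in opposite directions.

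As shares of the summed importin alpha level per length, Kpna2 took 46.5%, 77.2% and 89.1% in the lowest, median and highest control and 9.72%, 48.3% and 79% with SR1848. Kpna3 took 3.24%, 8.23% and 24.4% in controls and 9.01%, 35.8% and 73.3% with SR1848. At the medians, a pool led by Kpna2 stands beside a pool that Kpna2 and Kpna3 share. The median share of Kpna7 was 2.69% in controls and 10.6% with SR1848, that of Kpna1 9.35% and 2.28%, that of Kpna6 2.21% and 0.624%, and that of Kpna4 0.384% and 0.258%. A share within the family does not depend on the scaling between libraries, and it shows unequal change, not which member stayed as it was.

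**Figure D3:**
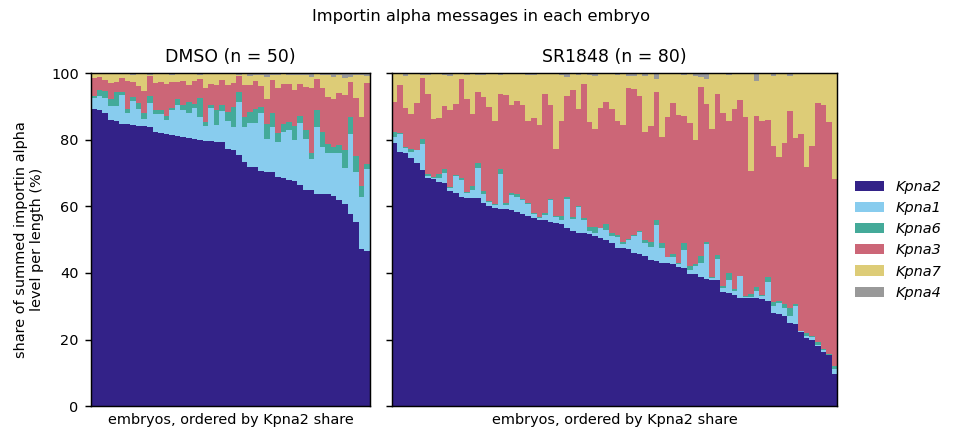
Share (%) of each importin alpha gene in the summed importin alpha level per length, 1 bar for each of 50 DMSO embryos (left) and 80 SR1848 embryos (right), ordered by the Kpna2 share. The Kpna2 share has a median of 77.2% with DMSO and 48.3% with SR1848, and Kpna3 and Kpna7 fill most of the difference.

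In the importin beta family 5 of 9 genes were lower and 2 higher. Kpnb1 (chromosome 11, 97159714 to 97187881, minus strand), the importin beta that carries importin alpha, was at 55.7, 109.9 and 179 CPM in controls and at 20.1, 57.5 and 133 CPM with SR1848. Below every control were 38 of 80 treated embryos, and the log2 fold change was -0.93 ± 0.09 (edgeR adjusted p = 9.7e-18). Ipo5 (chromosome 14, 120911224 to 120947999, plus strand), which imports ribosomal proteins and histones, was at 77.8, 268 and 621 CPM in controls and at 13.2, 89.9 and 239 CPM with SR1848. Of the treated embryos 31 lay below every control and 49 inside the control range, and the log2 fold change was -1.70 ± 0.11 (edgeR adjusted p = 8.4e-30). The larger part of its control counts fell on Ipo5-203, a model without a coding sequence, with means of 176 and 33.9 CPM and a log2 fold change of -2.43. The coding form Ipo5-201 fell by less, by 1.12, with means of 119 and 56.9 CPM and 13 treated embryos below every control. Ipo11 (chromosome 13, 106794439 to 106936958, minus strand), a receptor for ubiquitin-conjugating enzymes, had the largest fall of the family. It was at 23.9, 88.02 and 200 CPM in controls and at 0, 8.80 and 48.2 CPM with SR1848, and 74 of 80 treated embryos lay below every control. Its log2 fold change was -3.03 ± 0.18, an 8.18-fold difference (edgeR adjusted p = 1.4e-34). Ipo4, a histone importer, fell by 0.98 and Ipo7, which works with Kpnb1 on linker histones, by 0.53. Ipo4 shares 2583 of its 4669 exonic bases with Gm49378 on the same strand, so its value is uncertain.

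Ipo8 and Ranbp6 rose. Ipo8 (chromosome 6, 148770683 to 148831467, minus strand), the closest relative of Ipo7, was at 70.9, 160.4 and 280.1 CPM in controls and at 155, 330.0 and 571 CPM with SR1848. Above every control were 62 of 80 treated embryos, the most of any member. Its log2 fold change was 1.02 ± 0.08 with TMM (edgeR adjusted p = 2.7e-25) and 0.29 under oocyte scaling (adjusted p = 0.0228). Ranbp6 (chromosome 19, 29808400 to 29812974, minus strand), a relative of Ipo5 despite its name, was at 0, 1.66 and 16 CPM in controls and at 0, 9.30 and 63.7 CPM with SR1848. It had no count in 15 controls and 7 treated embryos, 26 treated embryos lay above every control, and the log2 fold change was 1.94 ± 0.39 (edgeR adjusted p = 3.0e-06). Within the family Ipo5 held a median of 24.9% of the summed level per length in controls and 8.66% with SR1848, while Ipo8 held 14.9% and 47.3%. These shares leave out 1 Ipo8 transcript that has no annotated length, so they understate Ipo8. That transcript held a mean of 59.96 of the 164.8 CPM of Ipo8 in controls and 99.4 of 335 CPM with SR1848. Relatives thus moved apart in the pairs Ipo7 with Ipo8 and Ipo5 with Ranbp6. Ipo9 and Ipo13 were not called, at 0.23 and 0.26, and both were called lower under oocyte scaling and higher under upper-quartile scaling.

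Among the exportins 2 fell steeply, and the other 5 lay between -0.05 and 0.44 on the log2 scale. Xpot (chromosome 10, 121587380 to 121626332, minus strand), the export receptor of transfer RNA, was at 14.1, 59.5 and 141 CPM in controls and at 0, 1.22 and 103 CPM with SR1848. Without a count were 22 treated embryos and no control, 61 of 80 were under 5 CPM, and 74 lay below every control. The highest treated value belonged to embryo 74, and the next ones were 40.1 and 20.8 CPM. The log2 fold change was -3.72 ± 0.34, a 13.2-fold difference and the largest of all members (edgeR adjusted p = 1.5e-19). Xpo1 (chromosome 11, 23256041 to 23298249, plus strand), the general export receptor for leucine-rich signals, was at 53.3, 237.5 and 583 CPM in controls and at 15.3, 46.6 and 203 CPM with SR1848. Below every control were 52 of 80 treated embryos, with a log2 fold change of -2.26 ± 0.12 (edgeR adjusted p = 1.4e-36). Its median share of the summed exportin level per length went from 38.9% to 12.7%.

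The other exportins held no steady direction. Ranbp17 (chromosome 11, 33211795 to 33513746, minus strand), a relative of Xpo7, was at 30.6, 55.1 and 145 CPM in controls and at 4.71, 65.6 and 403 CPM with SR1848. Treated embryos lay on both sides, 11 below and 9 above every control, and the log2 fold change of 0.44 ± 0.16 (edgeR adjusted p = 0.0114) turned to -0.29 under oocyte scaling, not called. Xpo7 was at 0.29 (edgeR adjusted p = 0.0105) and turned to -0.46 under oocyte scaling, called both times. Xpo5, which exports microRNA precursors, Xpo4 and the actin exporter Xpo6 were at 0.01, 0.11 and -0.05 and not called, with 69 to 78 of 80 treated embryos inside the control range. Under oocyte scaling all 3 were called lower.

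Ran and its close partner were lower. Ran (ENSMUSG00000029430; chromosome 5, 129020069 to 129024323, plus strand), the GTPase that gives transport its direction, was at 233.9, 459.9 and 729.9 CPM in controls and at 49.1, 277 and 694 CPM with SR1848. In 28 of 80 treated embryos it lay below every control, with a log2 fold change of -0.71 ± 0.11 (edgeR adjusted p = 1.5e-09). Per length it stood at 403 ± 84.7 TPM in controls and 222 ± 101 TPM with SR1848. Ranbp1 (chromosome 16, 18239784 to 18248732, minus strand), which helps Ran to hydrolyse GTP, was at 8.34, 22.6 and 55.9 CPM in controls and at 0.961, 8.06 and 26.1 CPM with SR1848. About as many treated embryos lay below every control (41) as inside the control range (39), and the log2 fold change was -1.26 ± 0.14 (edgeR adjusted p = 2.4e-14). Ranbp3, a cofactor of Xpo1, was at -0.07 and not called, and Ranbp3l did not pass the filter on low counts.

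**Figure D4:**
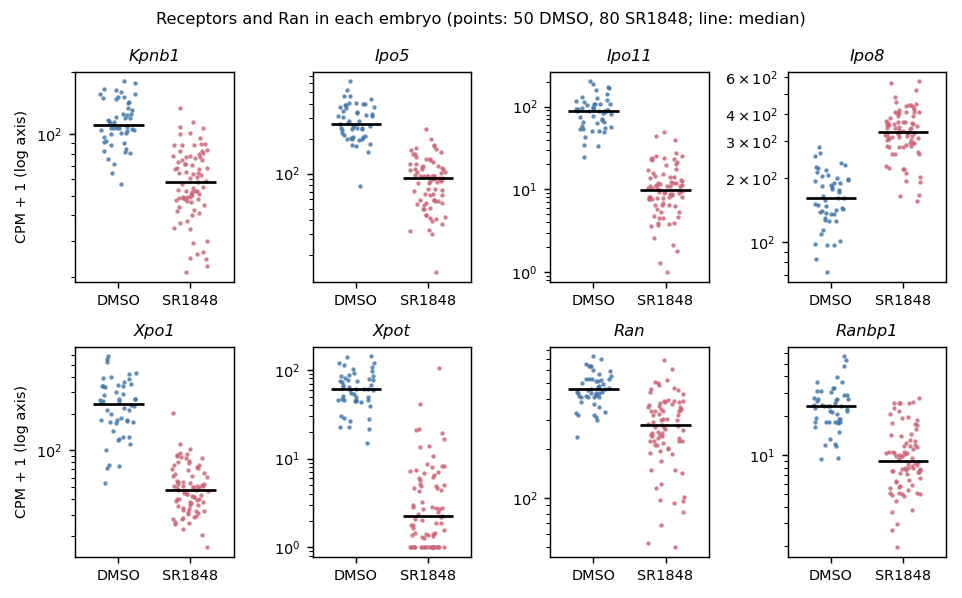
CPM + 1 (log axis) of 8 receptor and Ran genes in each of 50 DMSO and 80 SR1848 embryos, with 1 point for each embryo and a line at the median. Ipo8 is the gene with the treated embryos above the controls, and in Xpot 22 treated embryos sit at 0 counts.

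The genes that share only the name of Ran-binding proteins moved apart from each other. Ranbp9 (chromosome 13, 43402675 to 43481282, minus strand) was at 57.2, 106 and 202 CPM in controls and at 76.8, 197 and 399.9 CPM with SR1848. Above every control were 37 of 80 treated embryos, with a log2 fold change of 0.87 ± 0.09 with TMM (edgeR adjusted p = 2.9e-17) and 0.12 under oocyte scaling, where it was not called. Its relative Ranbp10 (chromosome 8, 105768308 to 105827350, minus strand) was at 25.3, 46.1 and 77.9 CPM in controls and at 0, 12.3 and 56.0 CPM with SR1848. The 74 treated embryos below every control and the log2 fold change of -1.82 ± 0.15 (edgeR adjusted p = 1.8e-22) put it on the other side. Both proteins can serve as the scaffold of the CTLH ligase.

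The treated embryos were not alike. Of the 27 pore, receptor and Ran genes called lower, a treated embryo had between 6 and 22 inside the range of the controls, with a median of 12, and embryo 23 had the 22. Of the 10 called higher, the median treated embryo had 7 inside the control range. The spread within the groups differed as well: the coefficient of variation of CPM for Kpna1 was 38% in controls and 106% with SR1848, for Xpot 47.6% and 263%, and for Ranbp2 37.6% and 94.7%. Other lowered genes were closer, such as Xpo1 with 49.6% and 52.1%. The genes that rose varied too, with 39.4% and 41.3% for Kpna3, 29.3% and 25.2% for Ipo8, and 41% and 89.4% for Ranbp17. These genes were picked as examples, and the spread was not tested.

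Looking below the gene, 105 transcripts of member genes with at least 5 CPM on average were tested, and 55 were lower and 30 higher. Of all 25763 transcripts tested, without the limit of 5 CPM, 73.6% were called in either direction. The shares lower and higher over all transcripts were not computed, so the split of the 105 has no background here. In 8 of the 34 member genes with at least 2 such transcripts, 1 transcript was called higher and another lower, beside 15.4% of all 4843 genes of that kind. They were Ipo7, Ipo9, Kpna2, Kpna4, Nup214, Nup50, Ranbp3 and Xpo6. Estimated counts divide reads between transcripts that share sequence, so a transcript's value is less certain than its gene's, and under oocyte scaling Ipo9-208 and Xpo6-220 turned lower without a call.

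In Kpna4 the forms changed places. Its gene value was not called, but Kpna4-203 (3726 bases) was at 0.566, 8.45 and 27.01 CPM in controls and at 0, 0 and 8.05 CPM with SR1848. Of 80 treated embryos 73 lay below every control, with a log2 fold change of -4.80 ± 0.44 (edgeR adjusted p = 2.2e-19). Kpna4-201 (8819 bases), which ends 5072 bases further downstream, was at 0, 1.323 and 7.18 CPM in controls and at 0.279, 10.1 and 50.9 CPM with SR1848. It rose by 2.92 ± 0.30 (edgeR adjusted p = 1.2e-16), and 48 treated embryos lay above every control. As a share of the counts of this pair, Kpna4-201 took 0%, 14.3% and 73.3% in the lowest, median and highest control and 45.5%, 100% and 100% with SR1848, with 74 of 80 treated embryos above every control. Shares of a pair are shares of counts, not per length, so the longer form weighs more in them. In the authors' deposited table, a DESeq2 comparison of transcripts, the log2 fold changes were 2.74 for Kpna4-201 and -5.17 for Kpna4-203.

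In Nup50 the transcripts that diverged encode the same protein. Nup50-201 and Nup50-202 have coding sequences of 1398 bases that are identical, and Nup50-201 ends 2956 bases further downstream. Nup50-201 was at 69.4, 127 and 289.5 CPM in controls and at 109, 222 and 728 CPM with SR1848, and rose by 0.90 ± 0.10 (edgeR adjusted p = 1.5e-15). Nup50-202 was at 72.6, 161 and 464 CPM in controls and at 0, 77.9 and 519.7 CPM with SR1848, and fell by 0.66 ± 0.20 (edgeR adjusted p = 0.00173). The share of the longer form in the counts of the pair was 27.6%, 42.7% and 59.8% in controls and 34%, 72.9% and 100% with SR1848, and 64 of 80 treated embryos lay above every control. Per length this share would be smaller in both groups, because Nup50-201 has 4766 bases and Nup50-202 has 1900. The authors' deposited table gives 0.67 for the longer and -0.87 for the shorter form. Over the 8 genes no direction prevailed: the form that rose had the more distal 3′ end in 3 (Kpna4, Nup50 and Nup214), the form that fell in 3 (Ipo7, Ipo9 and Xpo6), and the ends were the same in Kpna2 and Ranbp3. In Ranbp3, Ranbp3-206 rose by 0.95 and Ranbp3-201 fell by 0.75, and Ranbp3-206 was no longer called under oocyte scaling.

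**Figure D5:**
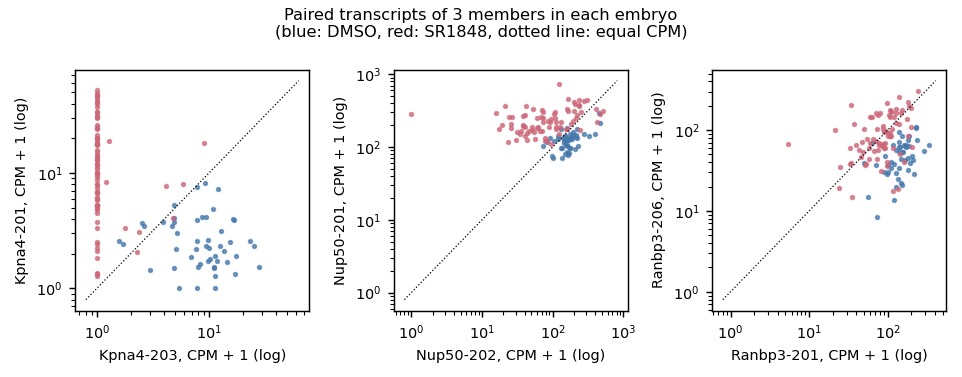
CPM + 1 on log axes of the transcript that fell (x) and the transcript that rose (y) of Kpna4, Nup50 and Ranbp3 in each embryo, 50 DMSO (blue) and 80 SR1848 (red); the dotted line marks equal CPM. Most treated embryos lie above the line in Kpna4. In Nup50 the transcript on the y axis has a median share of the pair's counts, not per length, of 42.7% with DMSO and 72.9% with SR1848. Ranbp3-206 was not called under oocyte scaling.

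In the other genes at least 1 of the forms was a noncoding or decay-targeted model, and in Xpo6 both were. Ipo7-201, the coding form, was at 27.9, 95.8 and 242.5 CPM in controls and at 0, 10.5 and 98.5 CPM with SR1848, and fell by 2.92 ± 0.22 (edgeR adjusted p = 2.9e-25). Ipo7-203, a model with a retained intron, was at 4.91, 20.9 and 91.7 CPM in controls and at 9.75, 52.5 and 286 CPM with SR1848, and rose by 1.63 ± 0.18 (edgeR adjusted p = 2.3e-14). The small fall of the Ipo7 gene, 0.53 on the log2 scale, was thus the sum of a steep fall of the coding form, with 72 of 80 treated embryos below every control, and a rise of the other. As a share of the counts of the pair, Ipo7-203 took 4.55%, 18.2% and 48.2% in the lowest, median and highest control and 28.7%, 83.6% and 100% with SR1848, and 75 of 80 treated embryos lay above every control. Kpna2 differed, because its coding form Kpna2-201 carried nearly all counts and fell by 1.39, while Kpna2-206, a model for nonsense-mediated decay, had median shares of 0.58% and 2.48% of the counts of the pair. A further coding model, Kpna2-205, rose by 1.11 (edgeR adjusted p = 4.3e-05) from a control median of 5.44 CPM. In Nup214 the coding form Nup214-201 rose by 1.17 and the retained-intron model Nup214-207, which was low in controls (median 5.55 CPM), fell by 4.51.

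Genes of the same machinery that the symbol pattern does not catch were read from a list set by function. Of 26 found, 25 were tested, 14 were lower (56%) and 6 higher (24%), with a median of -0.30. Over all genes tested 36.5% were lower and 45.6% higher, with a median of 0.24. Snupn, the adaptor that imports spliceosomal snRNPs, was at 94.3, 159.6 and 269.7 CPM in controls and at 0, 7.85 and 36.7 CPM with SR1848, a log2 fold change of -3.90 ± 0.18 (edgeR adjusted p = 3.2e-43). All 80 treated embryos lay below every control, as for no member of the chosen group. Tnpo3, which imports splicing factors, fell by 3.57, Hikeshi, the importer of Hsp70, by 2.54, and the Ran GTPase activator Rangap1 by 2.42. Cse1l, which returns importin alpha to the cytoplasm, fell by 2.26 and Nxf1, the export receptor of messenger RNA, by 1.98. Among the genes that rose were Ddx19a, a helicase of messenger RNA export, by 1.57 and Rae1, a messenger RNA export factor that binds Nup98, by 0.83.

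Genes of the nuclear lamina and envelope, the structures that hold the pores, were read from a further list. Of 13 genes 12 were tested, 7 were lower (58.3%) and 3 higher (25%), with a median of -0.47. Over all genes tested 36.5% were lower and 45.6% higher. The shares of this list were near those of the tested members, 57.1% lower and 22.4% higher, so they are not particular to the members. The inner membrane gene Lemd3 fell by 3.86, Sun1, a link between the lamina and the cytoskeleton, by 1.71, and the chromatin-binding envelope gene Banf1 by 1.57. Lmnb2, a B-type lamin, rose by 1.65 from a control median of 1.37 CPM, and the outer membrane gene Syne2 by 0.78.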

How the data were processed

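The submitters' processing notes name kallisto 0.46.1 beside bcl2fastq and Trim Galore 0.6.2, then DESeq2 1.32.0 under R 3.5.1, and give mm10 and hg19 as builds without a role. The authors deposited estimated counts from kallisto for 119358 transcript entries in each of 130 embryos. The authors' deposited comparison table gives log2 fold changes and adjusted p-values for each transcript, and supplied the gene of 117282 transcripts. A further deposited normalized table was not used. GENCODE M21 placed 379 more transcripts, and 1692 without a gene (0.734% of counts) and 5 other entries (0.0258%) stayed out. No source used here says whether counting used the strand; 14 members share at least 50 exonic bases with another gene, by up to 492 bases apart from Ipo4.

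Counts were summed per gene, rounded, filtered with filterByExpr and tested with edgeR 4.0.16 in R 4.3.3 (TMM factors, robust glmQLFit, glmQLFTest, two-sided, Benjamini-Hochberg over 13224 genes, threshold 0.05), without a covariate. Transcripts were tested in the same way. CPM use TMM-scaled library sizes; TPM divide each transcript's count by its annotated length, which 1 Ipo8 transcript lacks (347 of 348 member transcripts have one). A standard error is the size of the log2 fold change divided by the square root of its F statistic. The procedure was tested on simulated data. Counts carry no molecular identifiers, so they are not independent molecules.

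The members, roles and lists were chosen with earlier results of these data known. Values by embryo are given for the largest rise and fall and the most abundant gene of each role and for Ran, Kpnb1, Xpo1, Kpna2 and Kpna7, and members that change with the setting are named; Nup107, Kpna6, Ipo8, the transcripts and the genes of the other lists were chosen after their values were seen. Alternatives were RLE, upper-quartile, total-count and oocyte-transcript scaling, no filter, a mean of at least 5 CPM, DESeq2 1.42.0, limma-voom (limma 3.58.1), detected genes as a covariate, leaving out embryos with unusually low depth or gene number (over 3 median absolute deviations), embryo numbers up to or above 40, and the embryo number as a block. For the transcripts called both ways, the scalings were tried after seeing the data. The features of the proteins were not computed. An item of the marker lists is not reported here.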

Additional observations from a re-analysis of the deposited data

How the results depend on the processing

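The counts of lower pore genes (14 to 18 over the 13 alternatives) and the medians relative to all genes (-1.42 to -1.20 for the pore, -0.42 to -0.21 for the receptors) moved little, while the counts of higher genes did not hold. Pore genes called higher numbered 4 in the main analysis, 2 with RLE factors, total counts, no filter, DESeq2, embryo numbers above 40 or the replicate block, 7 with upper-quartile factors and 1 with oocyte scaling. Receptor and Ran genes called higher numbered 10 with upper-quartile factors, and those called lower 19 with oocyte scaling. Oocyte scaling put the pore median at -1.86 and the receptor median at -0.73. Of 49 members, 17 changed call or direction in at least 1 setting. Signs reversed under oocyte scaling for Ipo13 (-0.61), Ipo9 (-0.52), Kpna4 (-0.26), Nup153 (-0.78), Nup188 (-0.50), Nup50 (-0.25), Nup98 (-0.39), Ranbp17 (-0.29), Xpo4 (-0.54), Xpo5 (-0.71), Xpo7 (-0.46) and the transcripts Ipo9-208 (-0.13) and Xpo6-220 (-0.10). Under upper-quartile factors they reversed for Nup88 (0.041), Ranbp3 (0.15) and Xpo6 (0.17). The other reversals were of uncalled values. Nup153 was at -0.087 with RLE factors and with DESeq2, -0.17 with total counts, -0.013 without a filter, -0.041 with limma-voom, -0.015 with detected genes as a covariate, -0.15 above number 40 and -0.11 with the block. Xpo5 was at -0.10 with RLE factors and with DESeq2, -0.18 with total counts, -0.041 without a filter, -0.082 with limma-voom, -0.20 up to number 40 and -0.057 with the block. Xpo4 was at -0.0036 with RLE factors, -0.0035 with DESeq2, -0.087 with total counts, -0.023 up to number 40 and -0.13 with the block. Xpo6 was at 0.022 with the filter of 5 CPM and 0.028 up to number 40, Kpna4 at -0.13 with limma-voom, Nup188 at -0.064 above number 40 and Ipo9 at -0.093 with the block. The cause of these changes was not tested.

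The labels number the embryos within each group, and 50 numbers occur in both. Embryos of the same number did not deviate together. Their correlation ran from -0.192 to 0.124 with a median of 0.0189, and 1 of 50 correlated best with its own number. No pairing by number was thus seen, but shared handling that leaves no joint deviation would be missed this way. With the number as a replicate block, 2 pore genes were higher and 14 lower of 21 tested, with a median of -1.11, and 5 receptor and Ran genes were higher and 12 lower of 25, with a median of -0.14. Embryo numbers above 40 left 15 controls and 40 treated embryos. The depth filter left out 1 treated embryo and no control. Depth limits members with few counts: the control medians of Nup210, Ranbp6, Nup210l and Kpna4 were 0.432, 1.66, 7.52 and 11.1 CPM.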
